A study of Homo sapiens with 12 samples.

Results

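A set of 8 genes, DAB2IP, PEBP1, SLIT2, RUNX3, CDH1, KLF2, FBXO32 and RARRES1, was followed in BJ cells because each has been reported elsewhere as a tumour suppressor silenced by EZH2. Its members were all probes that the array's annotation pairs with one of these symbols, which gave 12 of the 47231 probes on the array. They covered 7 of the 8 genes, with 3 probes each for FBXO32 and RARRES1, 2 for RUNX3 and 1 each for PEBP1, SLIT2, KLF2 and CDH1. DAB2IP had no listed probe and was not analysed here. Detection above background on at least 3 of the 12 arrays was required for testing, and 10 probes in 6 genes met it. The rule that names the genes uses no measured value, although the genes were chosen with earlier results of these data known.

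EZH2 is the catalytic subunit of Polycomb repressive complex 2, which methylates a lysine of histone H3 around gene starts and so helps to keep genes off. In many carcinomas EZH2 is abundant, and losing it there can return growth-restraining genes to expression, which is why the 8 genes are read as EZH2 targets. PEBP1 (also called RKIP) and DAB2IP restrain the RAS and RAF pathway, SLIT2 and CDH1 act at the cell surface, RUNX3 and KLF2 are transcription factors, FBXO32 serves a ubiquitin ligase, and RARRES1 responds to retinoids. BJ cells are an established line of human foreskin fibroblasts that is not a carcinoma, so the genes were read here outside the cell types in which most were described.

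Cells were grown in medium with 10% serum, given lentivirus, left for 72 h, and then given siRNA for 60 h. In the si-Control group a control lentivirus (LV-C) was combined with control siRNA, and in the si-EZH2 group the same control virus was combined with siRNA against EZH2. In the EZH2 re-expression group the virus carried an RNAi-resistant EZH2 and the cells received the siRNA against EZH2. In the T350A re-expression group the virus carried a mutant in which alanine replaces the threonine of a phosphorylation site, again with the siRNA against EZH2. All 4 groups were thus transduced and transfected, none was untreated, and the 3 groups with the siRNA against EZH2 share any effect of it that re-expression does not reverse. Each group had 3 arrays, the labels do not say that these were separate cultures, and p-values therefore measure only the spread between these samples. By section of the chip, si-Control lay on A, C and F, si-EZH2 on E, G and H, and T350A re-expression on B, D and L. EZH2 re-expression lay on I, J and K, beyond every si-Control and si-EZH2 array. Position on the chip and treatment are therefore partly confounded in its comparisons with those groups. They are partly confounded in the knockdown comparison too, where si-EZH2 lay beyond si-Control except that E comes before F.

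The promoters of 3 member genes are shown because they carry the CpG-dense start regions at which Polycomb repression is usually described, and because they belong to a gene with 2 of 3 probes lowest after knockdown (RARRES1), one that fell in both re-expression groups (PEBP1) and one that did not pass any test (SLIT2). Each is read 5′ to 3′ on the gene's own strand from 250 bases before to 50 bases after the start, from RefSeq on GRCh38.p14, with every CpG in capitals. RARRES1 lies at chr3:158732408-158732707 on the minus strand, PEBP1 at chr12:118135874-118136173 on the plus strand and SLIT2 at chr4:20251655-20251954 on the plus strand.
RARRES1: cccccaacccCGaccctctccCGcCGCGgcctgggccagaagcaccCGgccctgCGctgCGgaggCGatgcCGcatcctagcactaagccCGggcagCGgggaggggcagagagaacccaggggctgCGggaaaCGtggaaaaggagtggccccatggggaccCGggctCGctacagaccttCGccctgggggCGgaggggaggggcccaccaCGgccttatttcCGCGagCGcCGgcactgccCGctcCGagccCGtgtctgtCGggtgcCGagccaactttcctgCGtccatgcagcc
PEBP1: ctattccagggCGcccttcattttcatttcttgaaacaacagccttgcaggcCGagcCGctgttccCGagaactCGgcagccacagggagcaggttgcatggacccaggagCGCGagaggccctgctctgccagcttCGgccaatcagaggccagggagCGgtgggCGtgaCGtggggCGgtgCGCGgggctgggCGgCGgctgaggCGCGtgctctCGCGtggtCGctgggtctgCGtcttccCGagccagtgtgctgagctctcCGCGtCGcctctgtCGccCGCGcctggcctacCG
SLIT2: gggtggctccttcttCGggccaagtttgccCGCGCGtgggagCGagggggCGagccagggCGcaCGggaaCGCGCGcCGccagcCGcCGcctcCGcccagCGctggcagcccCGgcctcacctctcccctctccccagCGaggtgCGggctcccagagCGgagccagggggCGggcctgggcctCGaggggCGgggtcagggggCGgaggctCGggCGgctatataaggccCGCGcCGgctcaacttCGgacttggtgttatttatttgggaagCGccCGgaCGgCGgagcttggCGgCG

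These 300-base windows held 28 CpGs for RARRES1, 30 for PEBP1 and 36 for SLIT2, with a GC content of 72%, 68% and 74.3%. Both KLF2 and the second listed start of RUNX3 were as dense, with 49 and 38 CpGs. In all, 9 starts of 6 member genes were listed, and 6 of the 9 (66.7%) had over 50% GC and an observed over expected CpG ratio over 0.6. The same held for 46.8% of 35116 listed promoters of human genes, so a CpG-dense start is common. The windows describe sequence alone, since neither histone methylation nor EZH2 binding was measured.

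Between 20658 and 21910 probes (43.7% to 46.4%) were detected on each array, and median raw signals lay between 59.9 and 73.8. Values are log2 intensities after background correction and quantile normalization, on which the detection limit lay between 4.90 and 4.98 per array. EZH2 itself checked the labels: its probe ILMN_1708105 averaged 6.79 in si-Control, 5.70 in si-EZH2, 5.84 in EZH2 re-expression and 5.91 in T350A re-expression. Its probe ILMN_2364529 averaged 5.63, 4.65, 8.48 and 7.18 in the same order, so the virus-borne EZH2 raised it far above si-Control. Its probe ILMN_1652913 averaged 6.33, 5.39, 8.55 and 7.99. All 10 fibroblast markers were detected on every array, while 5 of 11 epithelial, 6 of 9 endothelial and 4 of 9 leukocyte markers were detected on none. Of the same lists, 5 epithelial, 1 endothelial and 2 leukocyte markers were detected on every array.

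**Figure D1:**
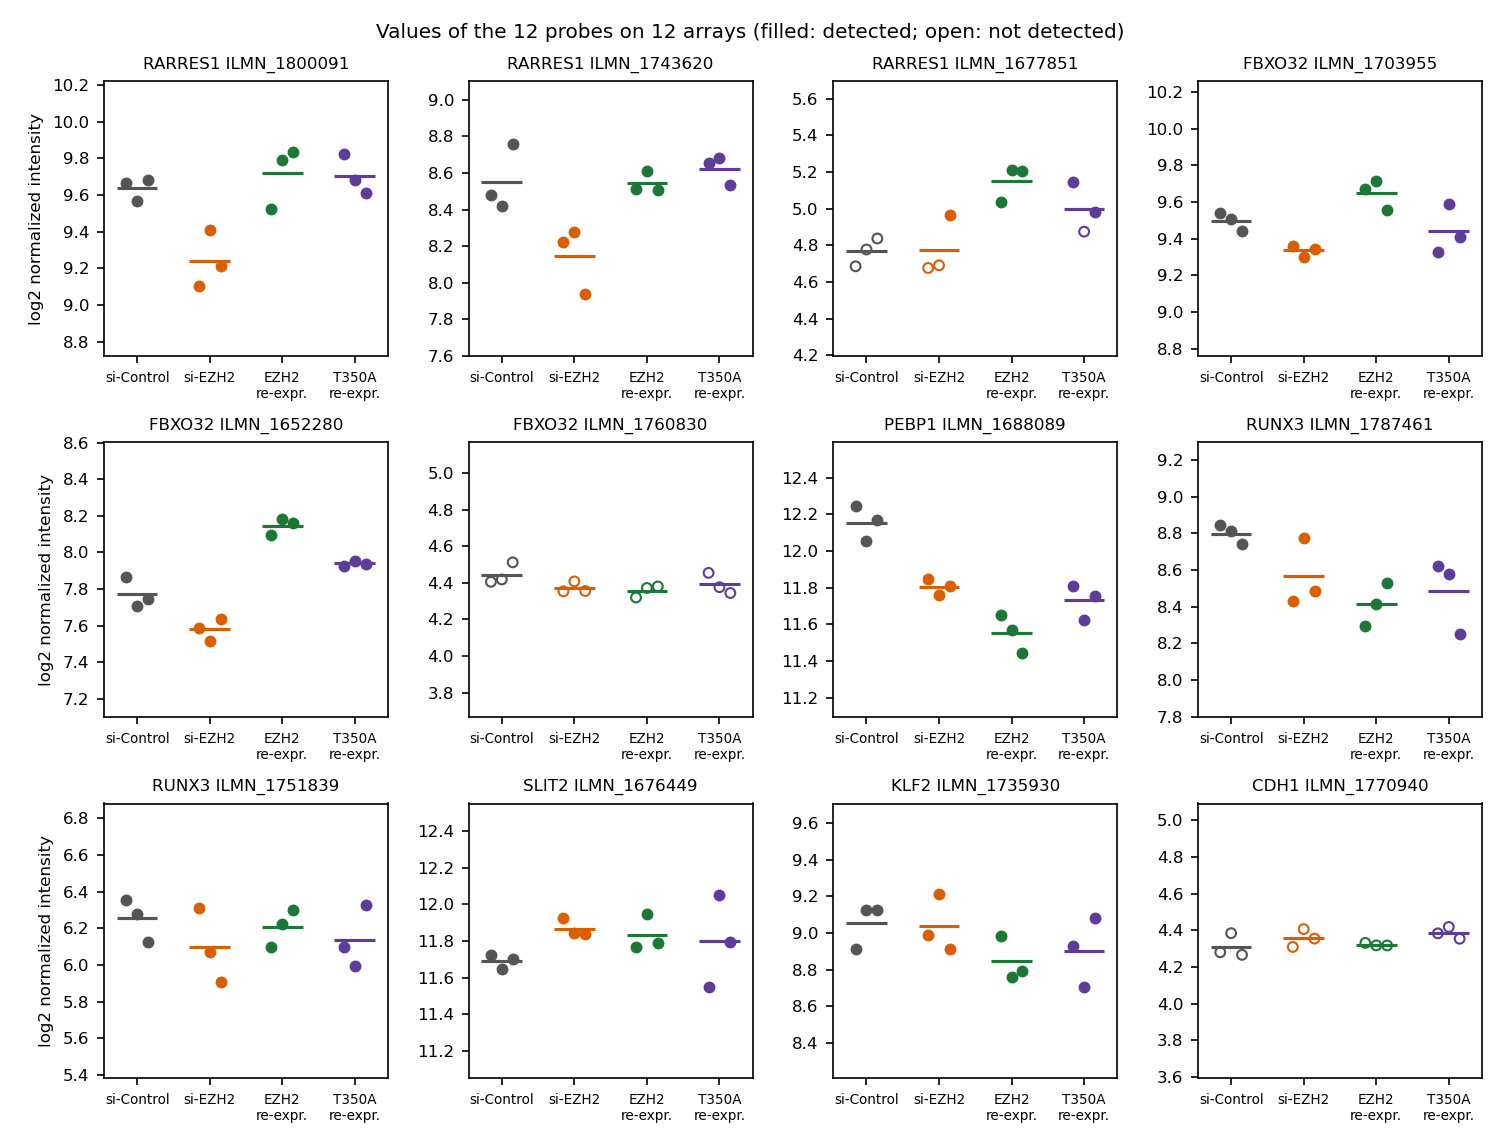
Log2 normalized intensity (vertical axes) of the 12 member probes on the 12 arrays, with 1 panel per probe and the 4 groups along the horizontal axis. Points are arrays, filled where the probe was detected and open where it was not, and lines are group means of 3 arrays. The RARRES1 probes ILMN_1800091 and ILMN_1743620 are lowest in si-EZH2, FBXO32 ILMN_1652280 is highest in EZH2 re-expression, PEBP1 is highest in si-Control, and CDH1 is open on all 12 arrays. Each vertical axis has its own position.

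No member rose or fell at the threshold after EZH2 knockdown. None of the 10 tested probes was called at an adjusted p under 0.05 by limma in si-EZH2 against si-Control, where 2.84% of all 23313 tested probes were called. At an unadjusted p under 0.05 there were 3 member probes, PEBP1 and 2 of RARRES1, against 15.9% of all probes, and all 3 were lower in si-EZH2. The differences of 8 probes were negative and of 2 positive, with a median of -0.18 on the log2 scale against -0.0034 for all tested probes. These counts are of probes, and the 10 probes came from 6 genes, with RARRES1, FBXO32 and RUNX3 counted more than once. PEBP1 and the 2 RARRES1 probes were called, all lower, under 5 other processing settings (adjusted p 0.0123 to 0.0329), among them limma-trend with robust moderation and the authors' own normalized values. Less RNA per cell and fewer cells expressing a gene cannot be told apart in these bulk samples, here and below.

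FBXO32 and RARRES1 rose when EZH2 was re-expressed. Against si-EZH2, 2 of 10 member probes were called, FBXO32 ILMN_1652280 and RARRES1 ILMN_1800091, where 2.88% of all tested probes were called. At an unadjusted p under 0.05 there were 6 member probes, 5 higher and 1 lower, against 18.4% of all tested probes. The 5 higher were the tested probes of 2 genes, FBXO32 and RARRES1, and probes of 1 gene are not separate members. Among these 5, RARRES1 ILMN_1677851 lay at the detection limit and was tested only because the re-expression arrays detected it. The median difference was 0.21, against 0.0016 for all tested probes. With the T350A form, 0 of 10 were called by limma and 0.103% of all probes were. An unadjusted p under 0.05 was reached by 3 member probes, all higher and all of FBXO32 and RARRES1 (13.7% of all probes). These comparisons share the si-EZH2 arrays, so a high or low si-EZH2 value enters both.

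**Figure D2:**
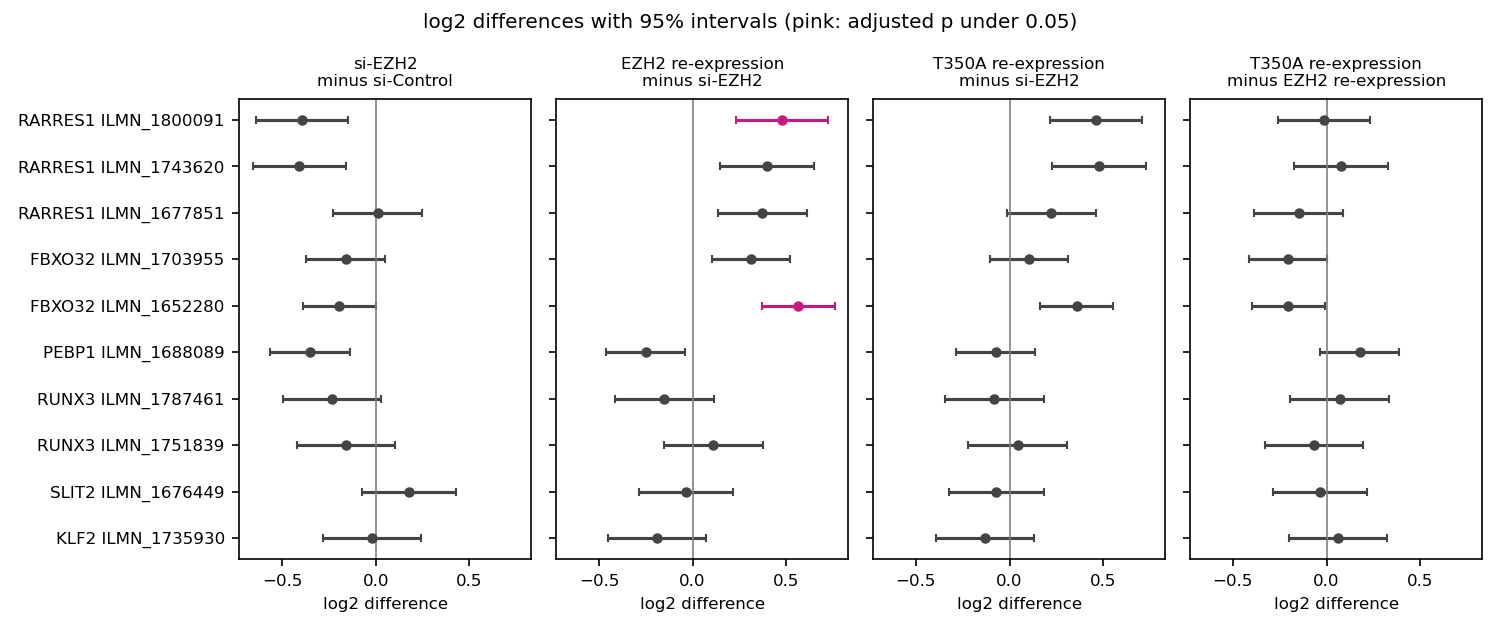
Log2 difference between group means (horizontal axes) of the 10 tested member probes in 4 comparisons, with 95% intervals from limma, 8 residual degrees of freedom and 7.29 prior ones. Pink marks an adjusted p under 0.05, and the vertical line is no difference. The 2 called probes, RARRES1 ILMN_1800091 and FBXO32 ILMN_1652280, are both in EZH2 re-expression minus si-EZH2.

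RARRES1, a membrane protein related to latexin that retinoids induce, had its lowest values in si-EZH2 on both probes that were detected on all arrays, while si-Control and both re-expression groups overlapped. In si-Control, probe ILMN_1800091 read 9.67, 9.57 and 9.68, against 9.10, 9.41 and 9.21 in si-EZH2. With EZH2 re-expression it read 9.52, 9.79 and 9.84, and with T350A re-expression 9.83, 9.68 and 9.61. The si-EZH2 arrays lay below all 9 others, and the other groups overlapped. Knockdown lowered the mean by 0.40 without passing the test (log2 difference -0.40 ± 0.115 SE, adjusted p = 0.0837 in limma). It then rose by 0.48 ± 0.115 with EZH2 (1.39-fold, adjusted p = 0.0390 in limma), and the T350A difference was 0.46 ± 0.115 (adjusted p = 0.106 in limma). The EZH2 call was lost without si-EZH2 replicate 1 (adjusted p 0.154) or 3 (0.121) and without EZH2 re-expression replicate 2 (0.130) or 3 (0.137). It was also lost with median scaling (0.0736), with chip section, the position of the array on its chip, as a covariate (0.0755), with only the groups compared (0.0762) and with the replicate number as a block (0.0569).

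A second RARRES1 probe, ILMN_1743620, gave a like order. It read 8.48, 8.42 and 8.76 on the si-Control arrays, 8.22, 8.28 and 7.94 on the si-EZH2 arrays, 8.51, 8.61 and 8.51 under the EZH2 virus, and 8.65, 8.68 and 8.53 under the T350A virus. Again the 3 si-EZH2 arrays were the lowest of the 12. The log2 difference was -0.41 ± 0.118 for knockdown (adjusted p = 0.0814), 0.40 ± 0.118 for EZH2 against si-EZH2 (adjusted p = 0.0833) and 0.48 ± 0.118 for T350A against si-EZH2 (adjusted p = 0.102), all by limma. None passed, although all 3 were called under 5 other processing settings (adjusted p 0.0174 to 0.0333). Over the 12 arrays the 2 probes correlated at r = 0.83, which describes these arrays and, with 4 groups among them, carries no test.

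The third RARRES1 probe, ILMN_1677851, sat at the detection limit and did not follow the others after knockdown. It was detected on 6 of 12 arrays, 0 of 3 in si-Control, 1 in si-EZH2, all 3 in EZH2 re-expression and 2 in T350A re-expression, and on 0 of 12 at a detection p under 0.01. It read 4.69, 4.78 and 4.84 on the si-Control arrays, 4.68, 4.69 and 4.96 on the si-EZH2 arrays, 5.04, 5.21 and 5.20 under the EZH2 virus, and 5.15, 4.87 and 4.98 under the T350A virus. EZH2 re-expression lay wholly above both si-Control and si-EZH2. Against si-Control, where no array detected it, the level with EZH2 was at least 1.15-fold higher (adjusted p = 0.0505 by limma). That p fell below 0.05 in 3 of the 12 fits that left out 1 array (0.0421 to 0.0488), and with median scaling (0.0471). The probe met the filter of 3 detected arrays only through the re-expression groups, where it was highest. Its higher level there is therefore partly set by the filter, and its p-values are a description only.

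LXN encodes latexin, a carboxypeptidase inhibitor of the same protein family, and is the neighbour of RARRES1 on chromosome 3 in RefSeq. It read 11.62, 11.79 and 11.78 on the si-Control arrays, 11.30, 11.29 and 10.96 on the si-EZH2 arrays, 11.67, 11.73 and 11.68 under the EZH2 virus, and 11.64, 11.36 and 11.62 under the T350A virus. As for RARRES1, the si-EZH2 arrays were the lowest of the 12. LXN fell by 0.54 ± 0.116 after knockdown (adjusted p = 0.0178 by limma) and rose by 0.51 ± 0.116 with EZH2 against si-EZH2 (adjusted p = 0.0303). With T350A the difference was 0.36 ± 0.116 (adjusted p = 0.200). The knockdown call was lost without si-Control replicate 2 (0.0663) or 3 (0.0693) or si-EZH2 replicate 3 (0.0851), and with only the groups compared (0.0546). The EZH2 call was lost without si-EZH2 replicate 1 (0.0578) or 3 (0.128) or any EZH2 re-expression array (0.0774 to 0.103), with chip section as a covariate (0.0775), with median scaling (0.0525) and with only the groups compared (0.0562). The LXN promoter window holds 9 CpGs, against 28 for RARRES1.

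**Figure D3:**
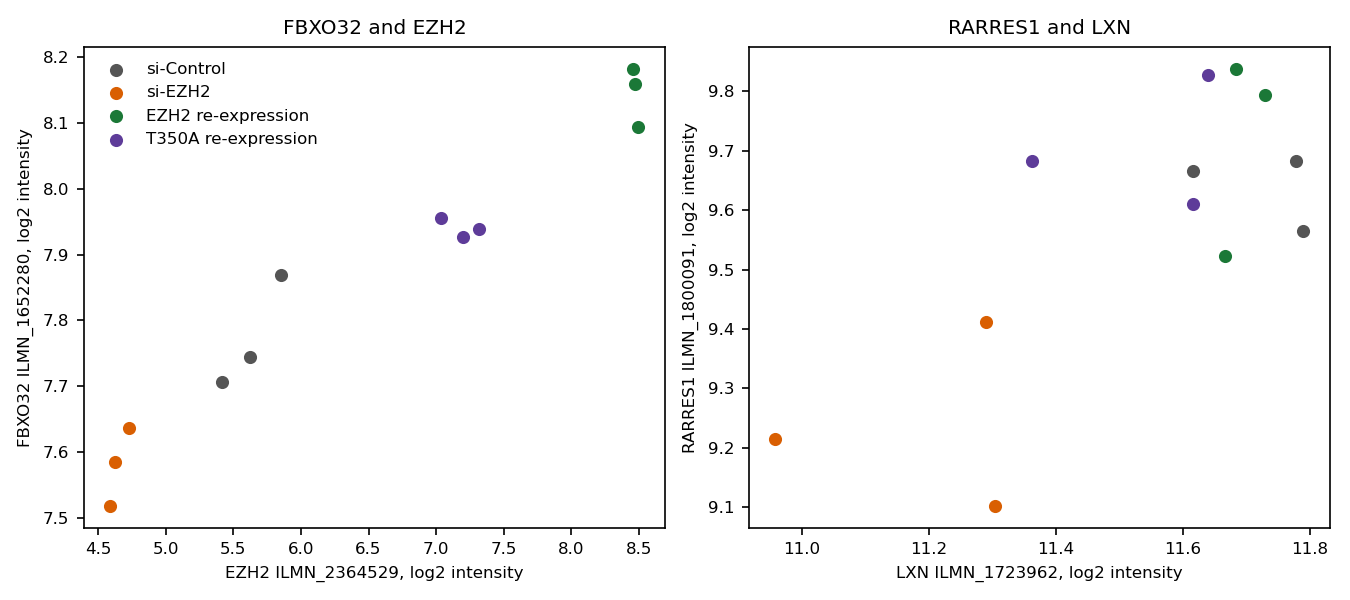
Left, log2 intensity of FBXO32 ILMN_1652280 (vertical) against EZH2 ILMN_2364529 (horizontal). Right, log2 intensity of RARRES1 ILMN_1800091 (vertical) against LXN ILMN_1723962 (horizontal). Each point is 1 of the 12 arrays, coloured by group. On the left the arrays run in the order of si-EZH2, si-Control, T350A re-expression and EZH2 re-expression on both axes, and on the right the 3 si-EZH2 arrays are low on both axes while the other groups overlap.

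Among 8 tested genes of the retinoid response and latexin list (of 12 listed), 1 rose and 2 fell after knockdown, where 3.45% of all genes were called. CYP26B1, which breaks down retinoic acid, rose from 8.61, 8.78 and 8.68 to 9.77, 9.51 and 9.51 (0.91 ± 0.103, adjusted p = 0.000111 by limma). DHRS3, which reduces retinal, fell from 10.74, 10.65 and 10.59 to 9.95, 9.93 and 9.97 (-0.71 ± 0.0966, adjusted p = 0.000616), and the other gene that fell was LXN. Both CYP26B1 and DHRS3 lay wholly apart from si-Control in every group that had the siRNA against EZH2. With EZH2 re-expression against si-EZH2, LXN rose and RARRES2 (chemerin) fell by 0.64 ± 0.108 (adjusted p = 0.00640), where 3.67% of all genes were called. With T350A 0 of the 8 were called by limma, and 0.111% of all genes were.

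The genes whose values over the 12 arrays were most like those of RARRES1 ILMN_1800091 were RHOC, a small GTPase (r = 0.92), OSR1, a zinc-finger transcription factor (r = 0.91), and LCMT1, a methyltransferase of a protein phosphatase (r = 0.89). OSR1 averaged 8.11 in si-Control, 7.75 in si-EZH2, 8.24 in EZH2 re-expression and 8.23 in T350A re-expression. RHOC averaged 11.46, 11.24, 11.63 and 11.61 in that order. These were picked out of all tested genes for their likeness, so the coefficients are a description only.

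FBXO32, also called atrogin-1, is the F-box subunit that brings substrates to an SCF ubiquitin ligase and is best known from muscle wasting. It was highest where EZH2 was re-expressed. Probe ILMN_1652280 read 7.87, 7.71 and 7.74 on the si-Control arrays, 7.59, 7.52 and 7.64 on the si-EZH2 arrays, 8.09, 8.18 and 8.16 under the EZH2 virus, and 7.93, 7.95 and 7.94 under the T350A virus. No 2 of the 4 groups overlapped. FBXO32 rose by 0.56 ± 0.0915 with EZH2 against si-EZH2 (1.48-fold, 95% interval 1.29 to 1.69, adjusted p = 0.00485 by limma), and this call was kept in all 12 fits that left out 1 array and under all 10 other alternatives. It rose by 0.37 ± 0.0915 against si-Control (adjusted p = 0.0236). That second call was lost without si-Control replicate 2 (0.0698) or 3 (0.0730), without any 1 EZH2 re-expression array (up to 0.0829), with median scaling (0.121), with chip section as a covariate (0.164) and with only the groups compared (0.0555).

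The knockdown difference of that FBXO32 probe was -0.19 ± 0.0915 (adjusted p = 0.319 by limma) and its T350A difference against si-EZH2 was 0.36 ± 0.0915 (adjusted p = 0.111), neither of which passed. A second probe, ILMN_1703955, read 9.54, 9.51 and 9.44 on the si-Control arrays, 9.36, 9.30 and 9.35 on the si-EZH2 arrays, 9.67, 9.71 and 9.56 under the EZH2 virus, and 9.33, 9.59 and 9.41 under the T350A virus. Here too EZH2 re-expression lay above both si-Control and si-EZH2, while T350A overlapped si-Control and si-EZH2. Its difference with EZH2 against si-EZH2 was 0.31 ± 0.0982 (adjusted p = 0.104), which passed under 5 other settings (adjusted p 0.0347 to 0.0477). The third probe, ILMN_1760830, was detected on 0 of 12 arrays, with raw signals of 40.5 to 54.6 and detection p from 0.506 to 0.906, and was not tested. The first and second probes correlated at r = 0.78 over the arrays.

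The gene most like FBXO32 ILMN_1652280 over the 12 arrays, out of all tested genes, was EZH2 by its probe ILMN_2364529 (r = 0.98). That EZH2 probe also reads the virus-borne EZH2, so it differs between groups by the design of the study, and the arrays form 4 groups rather than a continuous series. Next came RNFT2 (r = 0.95), with means of 6.17 in si-Control, 5.87 in si-EZH2, 6.86 in EZH2 re-expression and 6.62 in T350A re-expression. RPS24, a ribosomal protein gene, followed (r = 0.94), with 8.87 in si-Control, 8.71 in si-EZH2 and 9.30 in EZH2 re-expression.

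Of 10 genes of SCF ligases, FOXO factors and muscle atrophy, all tested, 1 rose and 0 fell after knockdown, where 3.45% of all genes were called, and the median difference was -0.15. The riser was FBXW7, another substrate-recognition subunit of SCF ligases (0.50 ± 0.114, adjusted p = 0.0283 by limma), whose call was lost without any 1 of the 6 arrays compared (0.0565 to 0.105), with chip section as a covariate (0.110) and with median scaling (0.0611). With EZH2 or T350A against si-EZH2 0 of the 10 were called by limma (3.67% and 0.111% of all genes were). The closest were FBXO25, the nearest relative of FBXO32 (-0.43, adjusted p = 0.0523 with EZH2), and SKP2, an F-box protein of the cell cycle (0.38, adjusted p = 0.0808). TRIM63, the other muscle atrophy ligase, differed by 0.46 (adjusted p = 0.140). FBXO25 and FBXO32 thus had differences of opposite sign, of which FBXO32's passed.

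PEBP1 is an inhibitor of kinase signalling, and in these fibroblasts it was highest in si-Control and lower in every group that had the siRNA against EZH2. Its probe ILMN_1688089 read 12.24, 12.05 and 12.17 on the si-Control arrays, 11.85, 11.76 and 11.81 on the si-EZH2 arrays, 11.65, 11.57 and 11.44 under the EZH2 virus, and 11.81, 11.62 and 11.76 under the T350A virus. All 3 si-Control arrays lay above the 9 others, and EZH2 re-expression lay below si-EZH2. The knockdown difference was -0.35 ± 0.10 (adjusted p = 0.0769 by limma) and did not pass, although 5 other settings called it (adjusted p 0.0123 to 0.0329). PEBP1 fell by 0.60 ± 0.10 with EZH2 against si-Control (1.52-fold lower, adjusted p = 0.00262), where 7.24% of all tested probes were called. It fell by 0.42 ± 0.10 with T350A against si-Control (adjusted p = 0.0298), where 3.56% were called.

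The EZH2 call of PEBP1 was kept in all 12 fits that left out 1 array and was lost with chip section as a covariate (adjusted p = 0.0653 by limma). The T350A call was lost without si-Control replicate 1 (0.112) or 3 (0.0852), without any 1 T350A re-expression array (from 0.0537), with chip section (0.0604) and with only the groups compared (0.0892). These comparisons share the si-Control arrays. Against si-EZH2, PEBP1 differed by -0.25 ± 0.10 with EZH2 (adjusted p = 0.190) and by -0.07 ± 0.10 with T350A (adjusted p = 0.797), and all 6 re-expression arrays lay below the 3 si-Control arrays. The genes most like PEBP1 over the 12 arrays were STAT5B, a cytokine-activated transcription factor (r = 0.96), ARLN (r = 0.95) and TMEM26 (r = 0.95). STAT5B averaged 6.92 in si-Control, 6.39 in si-EZH2, 5.90 in EZH2 re-expression and 6.24 in T350A re-expression.

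Of the RAS, RAF, MEK and ERK kinase list, 6 of 11 genes had a probe and 5 were tested. None was called after knockdown by limma (3.45% of all genes were), and the smallest adjusted p was 0.383 (MAP2K2, -0.36). ARAF, a RAF kinase, was 0.49 ± 0.126 higher with EZH2 against si-EZH2 (adjusted p = 0.0494), a call lost in 9 of the 12 fits that left out 1 array (0.0522 to 0.173). It kept its call without si-Control replicate 1 or 2 or si-EZH2 replicate 2, and lost it under 4 of the 10 other alternatives (0.0577 to 0.141). Against si-Control, ARAF differed by 0.57 with EZH2 (adjusted p = 0.0134) and by 0.52 with T350A (adjusted p = 0.0347). The first was lost without si-Control replicate 1 (0.0600) or EZH2 re-expression replicate 3 (0.0570) and with chip section as a covariate (0.256). The second was lost without si-Control replicate 1 (0.136) or 3 (0.0625) or any T350A array (0.0671 to 0.105), and under 4 of the 10 other alternatives (0.0534 to 0.0876).

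Of the ERK feedback genes, whose transcription follows ERK activity, all 12 were tested. After knockdown 3 rose and 0 fell, where 3.45% of all genes were called. With EZH2 against si-EZH2 0 rose and 4 fell, where 3.67% of all genes were called. Their median differences were 0.34 and -0.34, against -0.0015 and -0.0059 over all tested genes. The si-EZH2 arrays enter these 2 comparisons with opposite sign, so the 2 medians are not independent. DUSP4, an ERK phosphatase, rose from 5.97, 6.11 and 6.42 to 6.90, 6.77 and 7.16 after knockdown (0.78 ± 0.138, adjusted p = 0.00505 by limma). Against si-Control DUSP4 alone of the 12 was called, higher with EZH2 (0.51, adjusted p = 0.0371) and with T350A (0.57, adjusted p = 0.0347). Of all genes 8.80% and 4.21% were called there. Each of these 2 calls was lost in 4 of the 12 fits that left out 1 array (0.0921 to 0.139 and 0.0874 to 0.133) and under 4 of the 10 other alternatives (0.0540 to 0.470 and 0.0633 to 0.0786). The others that rose were SPRY2 (0.51, adjusted p = 0.0223), which was lost without any si-Control array or si-EZH2 replicate 1 or 2 (0.0551 to 0.0956), and ETV4 (0.56, adjusted p = 0.0351), which was lost without any 1 of the 6 arrays (0.0583 to 0.132). EGR1, an immediate-early transcription factor, fell from 10.28, 10.52 and 10.59 in si-EZH2 to 9.95, 9.84 and 9.86 with EZH2 (-0.58 ± 0.109, adjusted p = 0.0106), a call lost without si-EZH2 replicate 3 (0.0585).

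FOSL1 (-0.65, adjusted p = 0.0193), DUSP6 (-0.67, adjusted p = 0.0208) and SPRY4 (-0.47, adjusted p = 0.0246) also fell with EZH2 against si-EZH2. FOSL1 and SPRY4 were lost without si-EZH2 replicate 1 or 3 or EZH2 re-expression replicate 2 or 3 (0.0682 to 0.0994), and DUSP6 without si-EZH2 replicate 3 or any EZH2 re-expression array (0.0563 to 0.0946). With T350A against si-EZH2, 0 of the 12 were called by limma (0.111% of all genes were), with a median of -0.23. With chip section as a covariate, SPRY2 (0.0929), ETV4 (0.0603), DUSP6 (0.0510) and SPRY4 (0.0763) were not called. ETV4 was also lost without a filter (0.0659) and SPRY4 with only the groups compared (0.0565). PEBP1 itself had a negative difference in both comparisons, -0.35 and -0.25, neither of them called.

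RUNX3, a transcription factor of the TGF-beta response, did not pass in any comparison, and its 2 probes did not move together (r = 0.0079 over the 12 arrays). Probe ILMN_1787461 read 8.84, 8.81 and 8.74 on the si-Control arrays, 8.43, 8.78 and 8.49 on the si-EZH2 arrays, 8.29, 8.42 and 8.53 under the EZH2 virus, and 8.62, 8.58 and 8.25 under the T350A virus. Both re-expression groups lay below si-Control on it, by 0.38 ± 0.124 on the log2 scale with EZH2 (adjusted p = 0.0732 by limma) and by 0.31 ± 0.124 with T350A (adjusted p = 0.181). The EZH2 difference passed under 6 other settings (adjusted p 0.0198 to 0.0310). Probe ILMN_1751839 read 6.35, 6.28 and 6.13 on the si-Control arrays, 6.31, 6.07 and 5.91 on the si-EZH2 arrays, 6.10, 6.22 and 6.30 under the EZH2 virus, and 6.10, 5.99 and 6.33 under the T350A virus, and all 4 groups overlapped. The knockdown differences were -0.23 (adjusted p = 0.383) and -0.16 (adjusted p = 0.579).

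All 9 genes of the RUNX family and partner list were tested, and 0 were called after knockdown by limma (3.45% of all genes were). With EZH2 against si-EZH2 1 fell (3.67% of all genes were called), CBFB, the subunit with which every RUNX protein binds DNA. CBFB read 9.74, 9.75 and 9.76 in si-EZH2, 9.04, 8.98 and 9.26 in EZH2 re-expression, 9.35, 9.33 and 9.30 in T350A re-expression and 9.66, 9.54 and 9.54 in si-Control. It fell by 0.66 ± 0.0977 with EZH2 (adjusted p = 0.00320), a call kept in all 12 fits that left out 1 array and under all 10 other alternatives. The T350A difference was -0.42 (adjusted p = 0.0842).

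SLIT2, a secreted guidance ligand of the ROBO receptors that fibroblasts make, was well detected and did not pass in any comparison. It read 11.72, 11.65 and 11.70 on the si-Control arrays, 11.92, 11.85 and 11.84 on the si-EZH2 arrays, 11.77, 11.95 and 11.79 under the EZH2 virus, and 11.55, 12.05 and 11.79 under the T350A virus. The si-EZH2 arrays lay above si-Control, with a difference of 0.18 ± 0.118 and a 95% interval of -0.07 to 0.43 (adjusted p = 0.504 by limma). SLIT2 was the member with the largest positive difference after knockdown, and the interval reaches a 1.35-fold rise. The T350A arrays were the most spread of the 4 groups (SD 0.253, against 0.0375 to 0.0978).

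Of the SLIT and ROBO list 8 of 9 genes were tested, and 0 were called after knockdown by limma (3.45% of all genes were). With EZH2 against si-EZH2 1 fell (3.67% of all genes were called). This was SLIT3, a close relative of SLIT2, which read 8.56, 8.66 and 8.74 on the si-Control arrays, 8.34, 8.21 and 8.48 on the si-EZH2 arrays, 7.81, 7.83 and 7.75 under the EZH2 virus, and 8.20, 8.24 and 8.22 under the T350A virus. SLIT3 fell by 0.55 ± 0.0981 with EZH2 (adjusted p = 0.00844) and by 0.86 ± 0.0981 with EZH2 against si-Control (adjusted p = 0.000125), both kept in all 12 fits that left out 1 array. SLIT3 also fell with T350A against si-Control (-0.44, adjusted p = 0.0235 by limma), where 4.21% of all genes were called. That call was lost in 5 of the 12 fits that left out 1 array (0.0560 to 0.0885) and under 1 of the 10 other alternatives (0.0749). Its T350A difference from EZH2 re-expression was 0.42 ± 0.0981 and did not pass (adjusted p = 0.218 by limma). ROBO2, a receptor, fell by 0.76 ± 0.154 with EZH2 against si-Control (adjusted p = 0.00862), a call lost with chip section as a covariate (0.115).

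KLF2, a Kruppel-like transcription factor best known for quiescence in endothelium and T cells, showed no change that passed. It read 8.91, 9.13 and 9.13 on the si-Control arrays, 8.99, 9.21 and 8.91 on the si-EZH2 arrays, 8.98, 8.76 and 8.79 under the EZH2 virus, and 8.93, 8.70 and 9.08 under the T350A virus, and all 4 groups overlapped. The knockdown difference was -0.02 ± 0.123, with a 95% interval of -0.28 to 0.24 (adjusted p = 0.965 by limma), so a rise above 1.18-fold lay outside the interval. Of 8 other Kruppel-like factors tested, 0 were called by limma after knockdown, where 3.45% of all genes were. Against si-EZH2, 0 were called with EZH2 or with T350A (3.67% and 0.111% of all genes were). Against si-Control, 1 fell with EZH2 (8.80% of all genes were called) and 0 were called with T350A (4.21%). This was KLF6 (-0.35, adjusted p = 0.0415 by limma). The KLF6 call was lost in 8 of the 12 fits that left out 1 array (up to 0.132). It was also lost under 2 of the 10 other alternatives (0.0667 to 0.254).

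Of 8 genes known as KLF2 targets in endothelium, 4 were tested. After knockdown 1 rose (3.45% of all genes were called), and with EZH2 against si-EZH2 1 fell (3.67%). CCL2, a monocyte-attracting chemokine that KLF2 represses there, rose from 12.41, 12.35 and 12.62 to 13.29, 13.17 and 13.07 after knockdown (0.72 ± 0.107, adjusted p = 0.00125 by limma). It fell by 0.59 ± 0.107 with EZH2 against si-EZH2 (adjusted p = 0.00856), a call lost without si-EZH2 replicate 1 (0.0501). The other 3 were not called in these comparisons.

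CDH1, the epithelial cadherin, was not detected on any of the 12 arrays, so no level or change can be given. Its only probe, ILMN_1770940, had raw signals of 36.9 to 49.9, under the detection limits of 63.2 to 79.4, and detection p from 0.730 to 0.992. Neither the knockdown nor re-expression took it above background. Of the epithelial marker list, KRT5, KRT14, CLDN3, ESRP1 and GRHL2 were likewise detected on none. EPCAM, KRT8, KRT18, KRT19 and CLDN7 were detected on all 12, and the summed normalized signal of the list, on a linear scale, was 4613 to 5120 in si-Control, 4093 to 4369 in si-EZH2, 5606 to 6051 in EZH2 re-expression and 4820 to 4953 in T350A re-expression. KRT19, the 1 epithelial marker of 6 tested that was called, rose by 0.50 with EZH2 against si-EZH2 (adjusted p = 0.00887 by limma). So did CD14, the 1 leukocyte marker of 4 tested that was called (0.85, adjusted p = 0.00135), where 3.67% of all genes were called. No fibroblast marker was called there, and their summed signal was 177526 to 181198 in si-EZH2 and 157912 to 164202 in EZH2 re-expression. Against si-Control, 1 of the 6 epithelial and 1 of the 4 leukocyte markers rose with EZH2 (8.80% of all genes were called). With T350A 1 epithelial marker fell (4.21%). The part of these markers in the FBXO32 and RARRES1 results was not tested.

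Repressors of CDH1 were present, with 6 of 7 tested. By limma 0 of them were called after knockdown (3.45% of all genes were) or against si-EZH2 with EZH2 (3.67%) or T350A (0.111%). Against si-Control, 2 fell with EZH2, where 8.80% of all genes were called, and 3 with T350A, where 4.21% were. TCF3, which binds the E-boxes of CDH1, fell by 0.65 ± 0.108 with EZH2 (adjusted p = 0.00262) and by 0.50 ± 0.108 with T350A (adjusted p = 0.0211). The EZH2 call was lost with chip section as a covariate (0.0671). The T350A call was lost without si-Control replicate 1 (0.0901) or 3 (0.0501) or T350A re-expression replicate 2 (0.0716), and with only the groups compared (0.0696). SNAI2 was the other with EZH2 (-0.42, adjusted p = 0.0212), and with T350A they were SNAI2 (-0.39, adjusted p = 0.0494) and ZEB1 (-0.65, adjusted p = 0.0366). None of the 3 was kept in all fits that left out 1 array of the groups compared: SNAI2 was lost with EZH2 without any si-Control array or EZH2 re-expression replicate 1 or 3 (0.0505 to 0.0810), SNAI2 with T350A without any array except si-EZH2 replicate 2 (0.0544 to 0.135), and ZEB1 without si-Control replicate 1 or 3 or any T350A array (0.0538 to 0.130). Among the other alternatives, SNAI2 was lost with EZH2 under chip section (0.0940), SNAI2 with T350A under 3 (0.0558 to 0.104) and ZEB1 under 2 (0.0529 to 0.0797). Of 6 tested cadherins and catenins 0 were called in any comparison, where between 0% and 8.80% of all genes were. CDH2, the cadherin of mesenchymal cells, differed by 0.03 after knockdown (adjusted p = 0.924).

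DAB2IP, a GTPase-activating protein of RAS, could not be followed, and other RAS GTPase-activating proteins were read in its place as a list. Of 9 listed, 7 had a probe, 6 were tested, and 0 were called in any of the 6 comparisons by limma. Between 0% and 8.80% of all genes were called in these comparisons. Their median differences were -0.03 after knockdown and -0.05 with EZH2 against si-EZH2. NF1, the neurofibromin gene, differed by 0.16 after knockdown (adjusted p = 0.565) and RASAL2 by -0.39 with EZH2 (adjusted p = 0.170).

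Between the T350A form and EZH2, no member probe was called by limma, and 2 of all 23313 tested probes were (0.00858%). At an unadjusted p under 0.05 there was 1 member probe, FBXO32 ILMN_1652280, against 8.79% of all probes. It was lower with T350A, by 0.20 ± 0.0915 on the log2 scale (95% interval -0.40 to -0.01, adjusted p = 0.547). Its T350A arrays lay wholly below those of EZH2 re-expression. For RARRES1 ILMN_1800091 the difference was -0.01 with an interval of -0.26 to 0.23, and for PEBP1 it was 0.18 with an interval of -0.04 to 0.39 (adjusted p = 0.653). EZH2 RNA itself was lower with T350A than with EZH2 on probe ILMN_2364529 (means 7.18 and 8.48) and, by less, on ILMN_1652913 (7.99 and 8.55). On ILMN_1708105, which the virus did not raise above si-Control, the means were 5.91 and 5.84. The form and its amount therefore cannot be told apart in the FBXO32 difference.

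Over all 4 groups at once, the F-test called 3 of the 10 member probes, FBXO32 ILMN_1652280 (adjusted p = 0.00766 by limma), PEBP1 (0.00961) and RARRES1 ILMN_1800091 (0.0414), where it called 6.82% of all tested probes. The group means of FBXO32 were lowest in si-EZH2 and highest with EZH2, those of RARRES1 were lowest in si-EZH2, and those of PEBP1 were highest in si-Control. In none of the 3 was si-EZH2 the group with the highest mean. Against si-Control, EZH2 re-expression called 2 member probes, FBXO32 higher and PEBP1 lower (7.24% of all tested probes), and 4 had an unadjusted p under 0.05 (22.8%). T350A called 1, PEBP1 lower (3.56%).

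**Figure D4:**
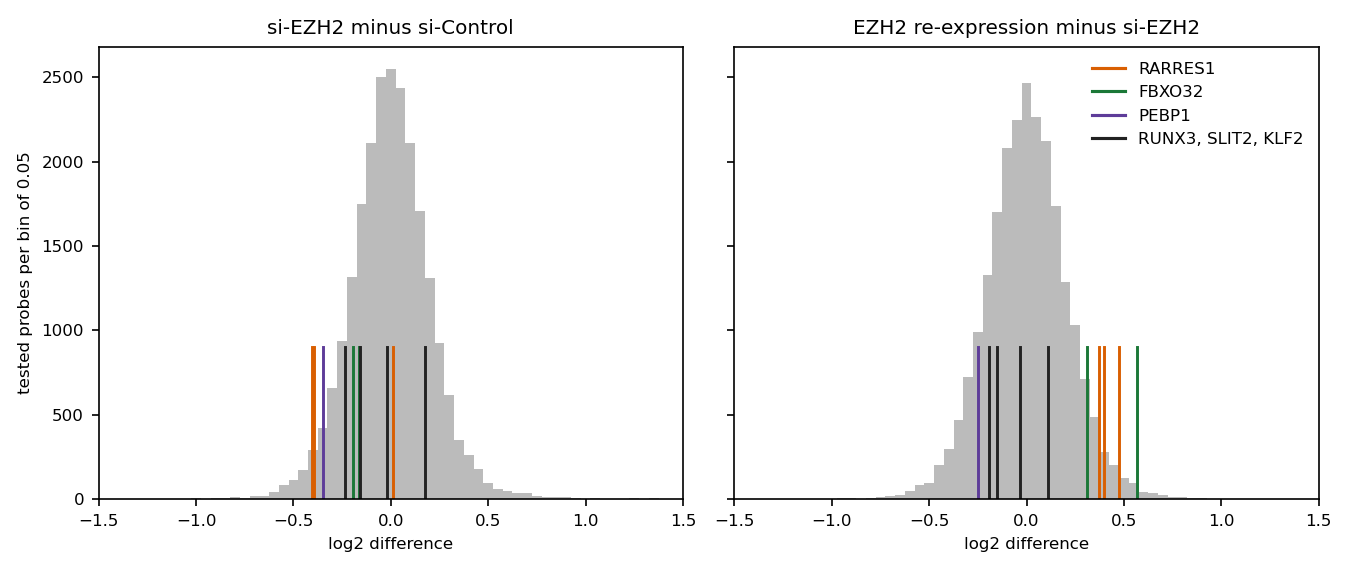
Number of tested probes (vertical axis, grey) by log2 difference (horizontal axis, bins of 0.05) in si-EZH2 minus si-Control on the left and EZH2 re-expression minus si-EZH2 on the right. Coloured lines mark the 10 member probes and have no height scale. On the left the lowest members are RARRES1 (-0.41 and -0.40) and PEBP1 (-0.35), and on the right the highest are FBXO32 (0.56) and RARRES1 (0.48).

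A second list of 19 genes reported as silenced by EZH2 was drawn from general knowledge, with earlier results of these data known. It gave 11 tested genes, of which 1 rose and 2 fell after knockdown, with a median of -0.0041, where 3.45% of all genes were called. DLC1, a tumour suppressor gene, was the one that rose, from 5.58, 5.65 and 5.67 to 6.29, 6.36 and 6.40 (0.72 ± 0.101, adjusted p = 0.000738 by limma), and its call was kept in all 12 fits that left out 1 array. It was lower in both re-expression groups than in si-EZH2, by -0.32 with EZH2 (adjusted p = 0.102) and -0.31 with T350A (adjusted p = 0.197), neither of which passed. Against si-Control DLC1 stayed higher with EZH2 (0.40, adjusted p = 0.0263 by limma) and with T350A (0.41, adjusted p = 0.0358). The first call was lost in 6 of the 12 fits that left out 1 array (0.0559 to 0.0873) and under 5 of the 10 other alternatives (0.0568 to 0.186). The second was lost in 5 (0.0580 to 0.123) and 7 (0.0545 to 0.113) of them. CDKN1C, a cell-cycle inhibitor, fell by 0.61 (adjusted p = 0.0112) and RARB, a retinoic acid receptor, by 0.55 (adjusted p = 0.0113), and the calls were lost without si-Control replicate 1 (0.0583) and replicate 2 (0.0558) respectively. With EZH2 or T350A against si-EZH2, 0 of the 11 were called by limma (3.67% and 0.111% of all genes were). Against si-Control, 2 rose and 1 fell with EZH2 (8.80% of all genes were called), and 2 rose with T350A (4.21%). Beside DLC1, CDKN2A, a cell-cycle inhibitor gene, was higher with EZH2 (0.65, adjusted p = 0.00549 by limma) and with T350A (0.74, adjusted p = 0.00472). CDKN1C stayed lower with EZH2 (-0.62, adjusted p = 0.00696), a call lost under 1 of the 10 other alternatives (0.114).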

How the data were processed

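BJ cells were profiled on 12 Illumina arrays of 1 chip. The deposited non-normalized table gave a linear intensity per probe and array that had not been background-subtracted, and beside it, per the file headers, a detection p-value. A further table of the authors held normalized linear intensity values (how it was made is not given in the sources used here). Symbols came from the array's platform annotation.

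Background was removed from the intensities with normexp, using the detection p-values (offset 16), followed by quantile normalization and log2 (neqc, limma 3.58.1, R 4.3.3). The test took every probe that 3 or more arrays detected (p under 0.05), 23313 probes and 12640 genes. Each gene of a list was read by its brightest probe on average. The 12 arrays entered 1 limma fit of the 4 group means with moderated variances. Tests were 2-sided, adjusted by Benjamini-Hochberg over all tested probes, and called at an adjusted p under 0.05. Errors are limma standard errors, or SDs over 3 arrays. A fold against a group in which no array detected the probe used the detection limits and is a lower bound. The code was tested on simulated data. Promoter windows came from RefSeq on GRCh38.p14. Python 3.11.15 and pandas 2.3.3 counted CpGs, and matplotlib 3.10.9 drew the plots.

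The members and lists were chosen with earlier results of these data known. Every member probe was named. Beside these could be named, per comparison, the 3 genes of a list with the lowest adjusted p (lists of up to 12 genes in full) and, for each called member probe, the 3 genes that correlated best with it. The lists were those given in the text and the PRC2 subunits, of which EZH2 alone was called in the 5 comparisons other than T350A minus EZH2. Alternatives changed the background step (none, or an offset of 50), the scaling (by medians, or the authors' values), the filter (none, or a detection p under 0.01 on all arrays), the moderation (limma-trend, robust), the design (replicate number as a block, a linear covariate for chip section, only the groups compared), and left out each array. The number of arrays limits the precision.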

Additional observations from a re-analysis of the deposited data

How the results depend on the processing

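The calls on member probes depended on the processing more than their directions did. Of 1314 values of single probes under an alternative, 24 lost a call, 47 gained one and 0 called differences turned, while 36 uncalled ones changed sign. In si-EZH2 minus si-Control the count of called members, 0, became 3 under each of 5 settings (the authors' values, limma-trend, the stricter filter, the offset of 50, uncorrected background), and stayed 0 without any 1 array. In EZH2 re-expression minus si-EZH2 the count, 2, became 4 under the same 5 settings. It became 1 with median scaling, chip section, the replicate block or only the groups compared, and 1 to 2 without 1 array. In T350A re-expression minus si-EZH2 the count, 0, became 2 with uncorrected background, limma-trend or the authors' values, and 3 with the offset of 50 or the stricter filter. Against si-Control, the count for EZH2, 2, became 3 with median scaling or under the same 5 settings, 0 with chip section, 1 with only the groups compared, and 1 to 3 without 1 array. The count for T350A, 1, became 0 with chip section or only the groups compared, and 0 to 1 without 1 array. The F-test count, 3, became 4 under the same 5 settings, 2 with median scaling, no filter or the replicate block, 1 with chip section, and 2 to 3 without 1 array. The number of all probes called moved with the same settings, between 384 and 1199 for knockdown and between 203 and 1489 for EZH2 re-expression minus si-EZH2. For the other comparisons it lay between 3 and 420 (T350A minus si-EZH2), 1 and 50 (T350A minus EZH2), 282 and 2704 (EZH2 minus si-Control), 313 and 1650 (T350A minus si-Control), and 697 and 3225 (F-test). The 282 came with chip section as a covariate, against 1688 in the main fit. The 384 for knockdown also came with chip section, against 663 in the main fit. Position and group are partly confounded in both comparisons. The cause was not tested.

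The replicate numbers paired the samples weakly at most. Deviations of same-numbered arrays correlated between -0.036 and 0.071 (median 0.016), and of others between -0.057 and 0.042 (median -0.0072). With the replicate number as a block, EZH2 re-expression minus si-EZH2 called 1 member probe, and RARRES1 ILMN_1800091 had an adjusted p of 0.0569 in limma. Signals near background limit CDH1, FBXO32 ILMN_1760830 and RARRES1 ILMN_1677851.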
